A study of Mus musculus with 12 samples.

Results

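The opioid peptides and their receptors are a set of 8 genes, and they were followed here in the septum of lactating and virgin mice. The 4 peptide precursor genes are Penk, Pdyn, Pnoc and Pomc, and the 4 receptor genes are Oprm1, Oprd1, Oprk1 and Oprl1. The members were picked by gene symbol and not by a cut on their values, although earlier results of these data were known. Each of the 8 was measured by exactly 1 transcript cluster, the probes that the array summarises into 1 value for a transcript, out of 35556 clusters in all, and 0 members lay in a cluster shared with another gene. The 12 arrays came from 6 lactating mice dissected on days 6 to 8 after birth and 6 virgin mice, with 1 Affymetrix mouse gene array per mouse, no pooling and an age of about 70 days in both groups. Every mouse belonged to a single line selectively bred from outbred hsd:ICR stock for high maternal aggression, so the values describe that line. Lactating mice had lived with a breeder male and virgin mice with other females before all were housed singly, and both groups ate breeder chow. The virgin mice were in mixed stages of the estrous cycle without proestrus, and the stage of each mouse is not given in the labels. Per the paper the tissue was the whole septum, while the deposited protocol names its lateral part.

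Opioid peptides are cut from large precursor proteins in secretory vesicles. Penk encodes the precursor of the enkephalins, Pdyn that of the dynorphins, Pnoc that of nociceptin, and Pomc that of beta-endorphin, which shares its precursor with melanocortins and corticotropin. Their receptors are inhibitory G protein-coupled receptors: Oprm1 encodes the mu receptor, the main target of morphine, Oprd1 the delta receptor, which binds enkephalins, Oprk1 the kappa receptor, which binds dynorphins, and Oprl1 the nociceptin receptor. Receptor activation lowers cyclic AMP, opens potassium channels, closes presynaptic calcium channels and so dampens neuronal firing and transmitter release. Subregions of the lateral septum hold enkephalin neurons, and the neighbouring striatum is rich in Penk and Pdyn neurons. Pomc neurons lie in the arcuate nucleus of the hypothalamus, outside the septum.

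The values are normalized intensities on a linear scale. They ran from 3e-05 to 26317 over all clusters, with array medians of 320 to 339 and log2 correlations between arrays of 0.987 to 0.994. Markers of the lateral septum (6 of 6 measured) and of the medial septum (6 of 7) were present in every mouse, including Zic1 at 4136 to 5082 and Trpc4 at 2216 to 2848 for the lateral part and Lhx8 at 634 to 976 and Slc18a3, the vesicular acetylcholine transporter, at 494 to 800 for the medial part. No gene of either list was called between the groups. Markers of the striatum and of the cortex and hippocampus were also measured, and 1 array stood apart in them. Lactating mouse 4 had the lowest mean level of striatum markers (-0.39 on the log2 scale, relative to the mean of the 12 arrays) and the highest of cortex and hippocampus markers (1.21). In that mouse the glutamate transporter gene Slc17a7 reached 3722, against 281 to 1163 in the virgin mice. Neurod6 (716), Tbr1 (1170), Fezf2 (1002) and Neurod1 (149) of the cortex and hippocampus list were also highest in it. The others did not follow: Neurod2 was highest in virgin mouse 6 (1703) and Emx1 in virgin mouse 2 (372). The differences of Penk, Pdyn, Oprm1 and Oprk1 are given with and without this array.

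None of the 8 opioid genes passed the test between lactating and virgin mice. Differences are given as the mean of log2(intensity + 16) in lactating minus virgin mice, tested with limma over all clusters, and a gene was called at an unadjusted p under 0.05. By this rule 0 of 8 members were called, beside 7.95% of all clusters (3.26% higher and 4.69% lower). After Benjamini-Hochberg adjustment limma called 0 of the 35556 clusters, 2828 of which had an unadjusted p under 0.05, and the adjusted p of the members ran from 0.623 to 0.989. The groups overlapped for every member, whereas they did not overlap in 0.394% of all clusters (0.208% higher and 0.186% lower). Of the members, 3 had a difference above 0 and 5 below, with a median of -0.02 against -0.01 over all clusters. Oprm1, Pomc and Penk had the smallest p among the 8. A missed threshold does not show that the groups were alike, so the interval of each difference is given. The ratio of the group means is quoted as lactating over virgin, and its interval is that of the log2 difference put on a linear scale.

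**Figure D1:**
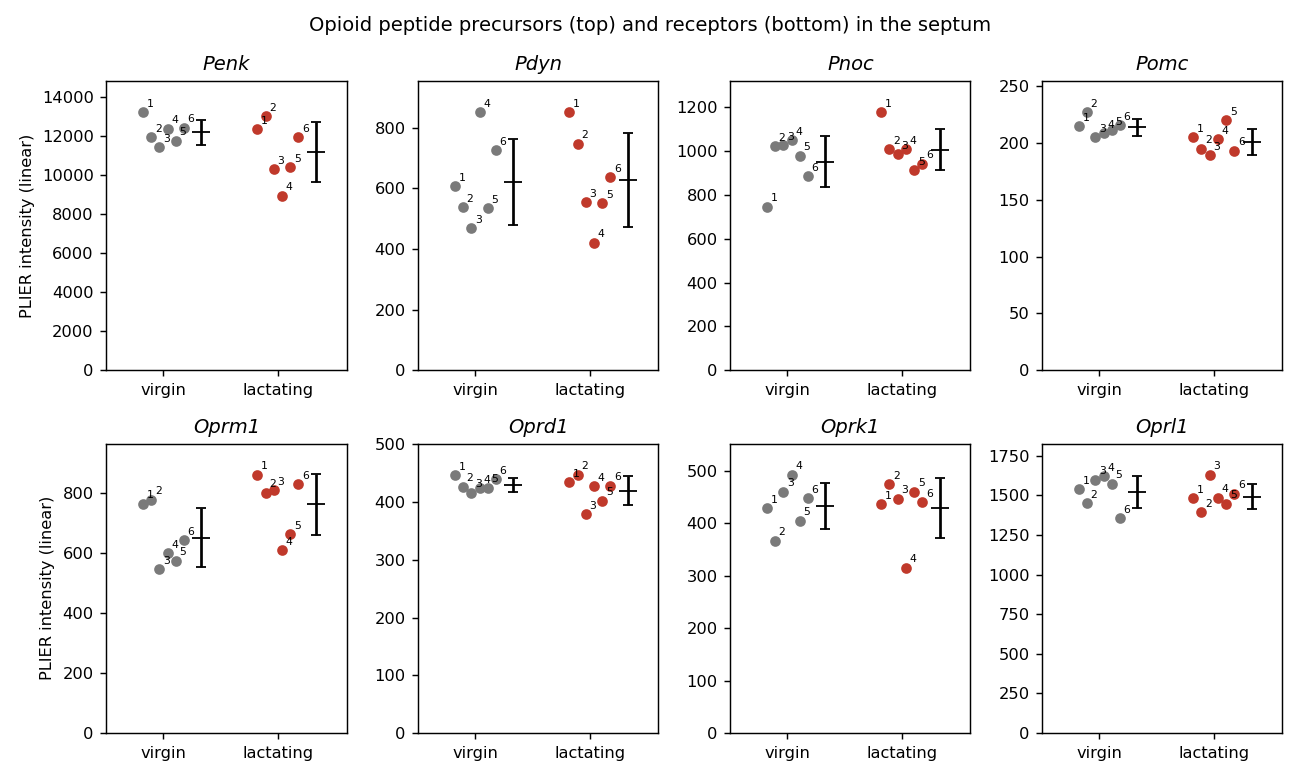
Normalized intensity (linear scale from 0) of the 8 opioid genes in each mouse, with grey points for virgin and red points for lactating mice, the replicate number beside each point, and the group mean and SD (n = 6) as a black bar. The groups overlap in every panel, and the Penk points of lactating mice 3, 4 and 5 lie below all virgin points.

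**Figure D2:**
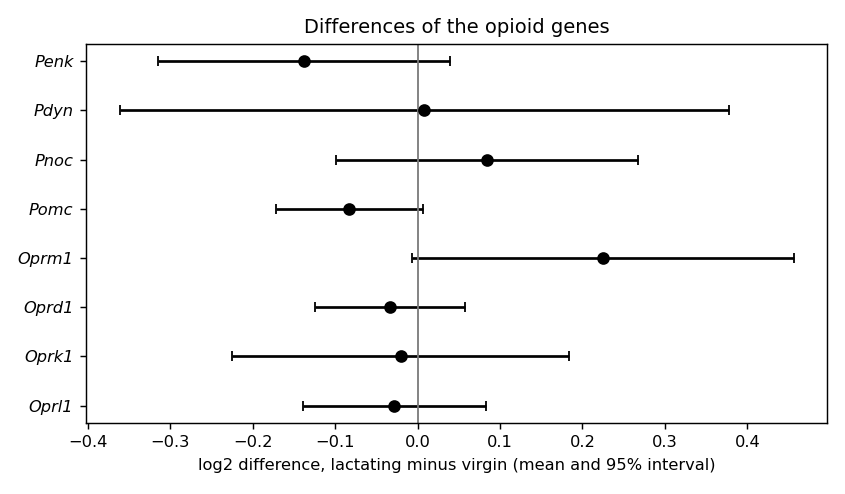
Difference of the group means of log2(intensity + 16), lactating minus virgin, with its 95% interval from limma, for each opioid gene. All 8 intervals include 0, those of Oprm1 (-0.01 to 0.46) and Pomc (-0.17 to 0.01) only narrowly, and the interval of Pdyn (-0.36 to 0.38) is the widest.

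Penk, the enkephalin precursor gene, had a higher mean in virgin than in lactating mice, within the spread of the replicates. Its intensity was 12333, 13004, 10288, 8932, 10398 and 11913 in lactating mice 1 to 6. In virgin mice 1 to 6 it was 13207, 11920, 11402, 12361, 11741 and 12412. Lactating mice 3, 4 and 5 lay below every virgin mouse, while lactating mice 1, 2 and 6 lay within the virgin range. The mean was 11145 ± 1526 (SD, n = 6) in lactating and 12174 ± 633 (SD, n = 6) in virgin mice, a ratio of 0.915 with an interval of 0.804 to 1.03. On the log2 scale the difference was -0.14 (SE 0.0818), which gave p = 0.118 in limma and p = 0.141 in the exact two-sided permutation test. On the log2 scale the SD among lactating mice was 0.202 and among virgin mice 0.0743, and the difference in spread was not tested. Without lactating mouse 4 the Penk difference was -0.08 (SE 0.0672) and did not pass the threshold, and without lactating mouse 2, the brightest of its group, it was -0.18 (SE 0.0773) and passed it in limma.

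Pdyn varied more between mice of a group than any other member. In lactating mice 1 to 6 its intensity was 852, 747, 554, 421, 552 and 638, and in virgin mice 1 to 6 it was 608, 537, 469, 851, 534 and 726. Lactating mouse 1 and virgin mouse 4 were almost equally high, and lactating mouse 4 was the lowest, with a ratio of 2.02 between the highest and the lowest array. The means were 627 ± 154 and 621 ± 143 (SD, n = 6 each), and the log2 difference was 0.0084 (SE 0.171, p = 0.962, limma; p = 0.972, exact permutation test). With this spread the interval of the ratio reached from 0.779 to 1.30, so the 6 mice per group leave a wide span of ratios possible. The within-group SD of Pdyn was 0.331 on the log2 scale, larger than in 99.4% of the clusters above the median intensity. The sign of its difference turned under several settings, and without lactating mouse 4 the difference was 0.11 (SE 0.157). It was 0.15 (SE 0.163) with the striatum markers as a covariate and 0.11 (SE 0.158) with the cortex and hippocampus markers, both covariates chosen after seeing the data.

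Pnoc was 1178, 1009, 986, 1008, 912 and 941 in lactating mice 1 to 6. In virgin mice 1 to 6 it was 746, 1021, 1026, 1048, 978 and 886. Lactating mouse 1 was above every virgin mouse and virgin mouse 1 was below every other array, while the remaining 10 arrays spanned 886 to 1048. The means were 1006 ± 92.6 and 951 ± 116 (SD, n = 6 each), a ratio of 1.06 with an interval of 0.934 to 1.20. The log2 difference was 0.08 (SE 0.0847, p = 0.337, limma; p = 0.422, exact permutation test), and without virgin mouse 1 it was 0.02 (SE 0.0665).

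The Pomc cluster was dim. Its mean over the 12 arrays, 207, lay below the median cluster (331), and 98 of the 1035 clusters of odorant receptors, genes of the nasal epithelium used here as a reference for dim signal, were at or above it. Its intensity was 205, 195, 189, 203, 220 and 193 in lactating mice 1 to 6 and 215, 227, 205, 208, 211 and 216 in virgin mice 1 to 6. Lactating mice 2, 3, 4 and 6 lay below all virgin mice, and lactating mouse 5 lay above all but 1 of them. The means were 201 ± 11.2 and 214 ± 7.72 (SD, n = 6 each), a ratio of 0.941, with an interval from -11.2% to 0.424% for the difference, which was -0.08 on the log2 scale (SE 0.0411). Limma gave p = 0.0654 and the exact permutation test gave p = 0.0498, where the smallest p this design allows is 0.00216. The median difference of the odorant receptor clusters themselves was -0.07. Across the 12 mice Pomc followed the mean log2 level of those clusters, with Pearson's r = 0.853 (permutation p = 0.00051, adjusted p = 0.00408 over 8 members) and Spearman's rho = 0.867 (adjusted p = 0.00432, permutation). The correlation was 0.753 within lactating and 0.950 within virgin mice, and 0.706 without lactating mice 3 and 6, whose level of those clusters was farthest from the median of the 12 arrays. For the other 7 members the adjusted permutation p was at least 0.147 for Pearson's r and at least 0.14 for Spearman's rho. It was lowest for Oprl1, with r = -0.610. Hypothalamus markers (6 of 7 measured, none called and none at 0) had summed levels of 1668 to 1991 in lactating and 1750 to 2157 in virgin mice. Their median log2 difference was -0.095, with 1 difference above 0 and 5 below. Of the 6, 3 had a mean at or below the 95th percentile of the odorant receptor clusters, which was 251. Whether hypothalamic tissue had a part in the Pomc values was not tested.

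Of the receptors, Oprm1 had the largest difference of all members. The mu receptor gene measured 859, 800, 808, 608, 661 and 827 in lactating mice 1 to 6. In virgin mice 1 to 6 it measured 763, 776, 544, 598, 574 and 641. Lactating mice 1, 2, 3 and 6 were above every virgin mouse, and virgin mice 3, 4 and 5 were below every lactating mouse, but lactating mice 4 and 5 lay in the virgin range and virgin mice 1 and 2 lay between both sets of lactating mice. The means were 761 ± 101 in lactating and 649 ± 98.5 in virgin mice (SD, n = 6 each), a ratio of 1.17 with an interval of 0.996 to 1.37. On the log2 scale the difference was 0.22 (SE 0.107), and it missed the threshold in limma (p = 0.0557, adjusted p = 0.623) and in the exact permutation test (p = 0.0823). The difference was above 0 under every alternative tried, from 0.18 to 0.30 on the log2 scale. Its limma p was under 0.05 in 6 of 10 alternative settings on that scale and in 4 of 12 fits that left out 1 array. The 6 include the striatum and the cortex and hippocampus covariates, both chosen after seeing the data. Cyclic loess, among the 10 and also chosen then, did not pass. Without lactating mouse 4 it was 0.29 (SE 0.101) and passed the threshold in limma, and without virgin mouse 3 it was 0.18 (SE 0.107) and did not.

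The delta receptor gene Oprd1 had the smallest within-group SD of the receptor genes, 0.0646 on the log2 scale. Its 6 lactating values ran from 379 to 448 with a median of 428, and its 6 virgin values ran from 416 to 447 with a median of 426. The means of 420 ± 24.8 and 430 ± 11.4 (SD, n = 6 each) gave a ratio of 0.977, and the interval of 0.917 to 1.04 was among the narrowest of the set. The log2 difference was -0.03 (SE 0.0421, p = 0.437, limma; p = 0.409, exact permutation test), and without lactating mouse 3 it was -0.0059 (SE 0.0372).

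The kappa receptor gene Oprk1 measured 436, 475, 447, 315, 460 and 440 in lactating mice 1 to 6 and 429, 367, 460, 493, 405 and 448 in virgin mice 1 to 6. Lactating mouse 4 was far below the other lactating mice, which lay between 436 and 475 and inside the virgin range. The means were 429 ± 57.3 and 434 ± 44.2 (SD, n = 6 each), with a ratio of 0.989 and an interval of 0.856 to 1.14. The log2 difference was -0.02 (SE 0.0946, p = 0.833, limma; p = 0.851, exact permutation test), and without lactating mouse 4 it was 0.06 (SE 0.0660).

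The nociceptin receptor gene Oprl1 ran from 1393 to 1631 (median 1485) in lactating and from 1356 to 1621 (median 1556) in virgin mice. The lactating range held all virgin mice but number 6. The means were 1492 ± 79.2 and 1523 ± 101 (SD, n = 6 each), a ratio of 0.980 with an interval of 0.908 to 1.06. The log2 difference was -0.03 (SE 0.0514, p = 0.592, limma; p = 0.578, exact permutation test), and it ran from -0.061 without virgin mouse 6 to -0.0091 without lactating mouse 2.

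The expression of Penk followed the markers of striatal projection neurons from mouse to mouse. The marker list had 10 genes, of which 8 were measured by a cluster with 1 symbol: the dopamine receptors Drd1 and Drd2, Ppp1r1b, which encodes the dopamine-regulated phosphoprotein DARPP-32, Rgs9, Rasd2, Gpr6, Syndig1l and Foxp1. Their summed level ran from 13228 to 20800 in lactating and from 17088 to 21383 in virgin mice, and none was at 0. All 8 had a difference below 0, with a median of -0.11, and 0 of 8 were called, beside 7.95% of all clusters. Over all clusters 45.6% were above 0, and over those above the median intensity 60.8% were. All of the markers but Syndig1l were lowest in lactating mouse 4, so the 8 are not separate results. Over the 12 mice the log2 level of Penk correlated with the mean of these markers at Pearson's r = 0.889 (permutation p = 0.00013, adjusted p = 0.00416 over 32 relations of 8 members with 4 marker lists). Spearman's rho was 0.818, with an adjusted p of 0.0656 (permutation). The correlation was 0.881 within lactating and 0.851 within virgin mice, and 0.715 without lactating mouse 4 and virgin mouse 1, which had the lowest and the highest marker level. With the level of the striatum markers as a covariate, an alternative chosen after seeing the data, the Penk difference was -0.03 (SE 0.0533). With the level of the cortex and hippocampus markers as a covariate it was -0.08 (SE 0.0727). In such bulk tissue, fewer cells of a type and less RNA per cell cannot be told apart, and the part of the dissection in the Penk values was not tested.

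**Figure D3:**
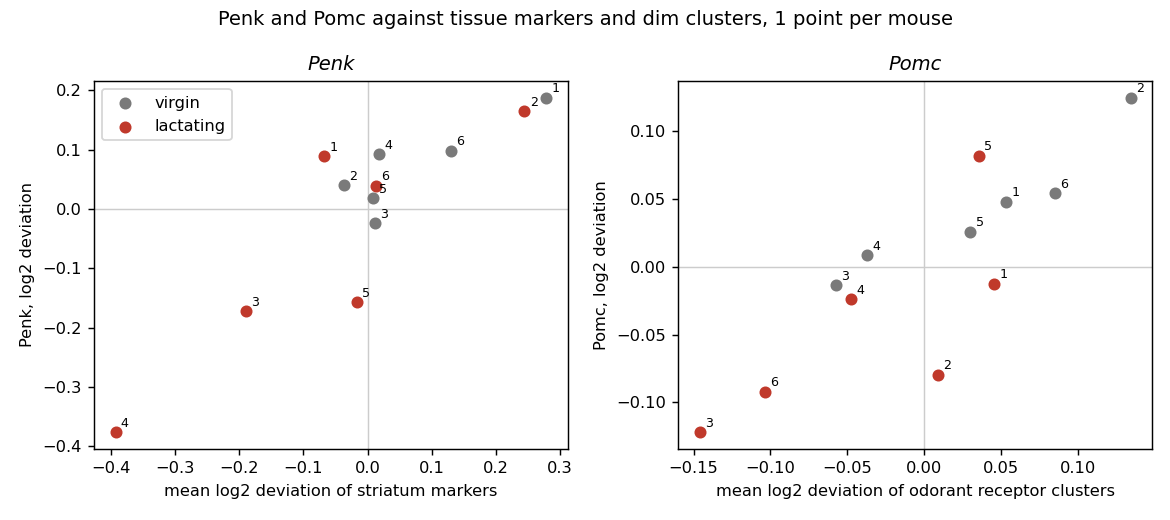
Log2 deviation from the mean of the 12 arrays of Penk against the striatum markers (left) and of Pomc against the odorant receptor clusters (right), with 1 numbered point per mouse, grey for virgin and red for lactating. Penk rises with the striatum markers (r = 0.889), with lactating mouse 4 at the bottom left, and Pomc rises with the dim odorant receptor clusters (r = 0.853), with lactating mouse 3 at the bottom left.

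The other 31 relations between a member and a marker list had an adjusted p of at least 0.255 (permutation). Lactating mouse 4, the mouse with the most cortex and hippocampus marker signal, had the lowest Penk, Pdyn and Oprk1 values of the 12 and the lowest Oprm1 value of the lactating mice. The 7 measured cortex and hippocampus markers (of 8) had summed levels of 2701 to 8669 in lactating and 2844 to 4463 in virgin mice, with 0 called and none at 0. Of the 7, 2 (Neurod6 and Neurod1) had a mean at or below the 95th percentile of the odorant receptor clusters (251). For Oprm1 the difference was larger with a tissue covariate, 0.30 (SE 0.108) with the striatum markers and 0.29 (SE 0.0959) with the cortex and hippocampus markers. Both passed the threshold in limma, and both covariate fits were chosen after seeing the data.

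**Figure D4:**
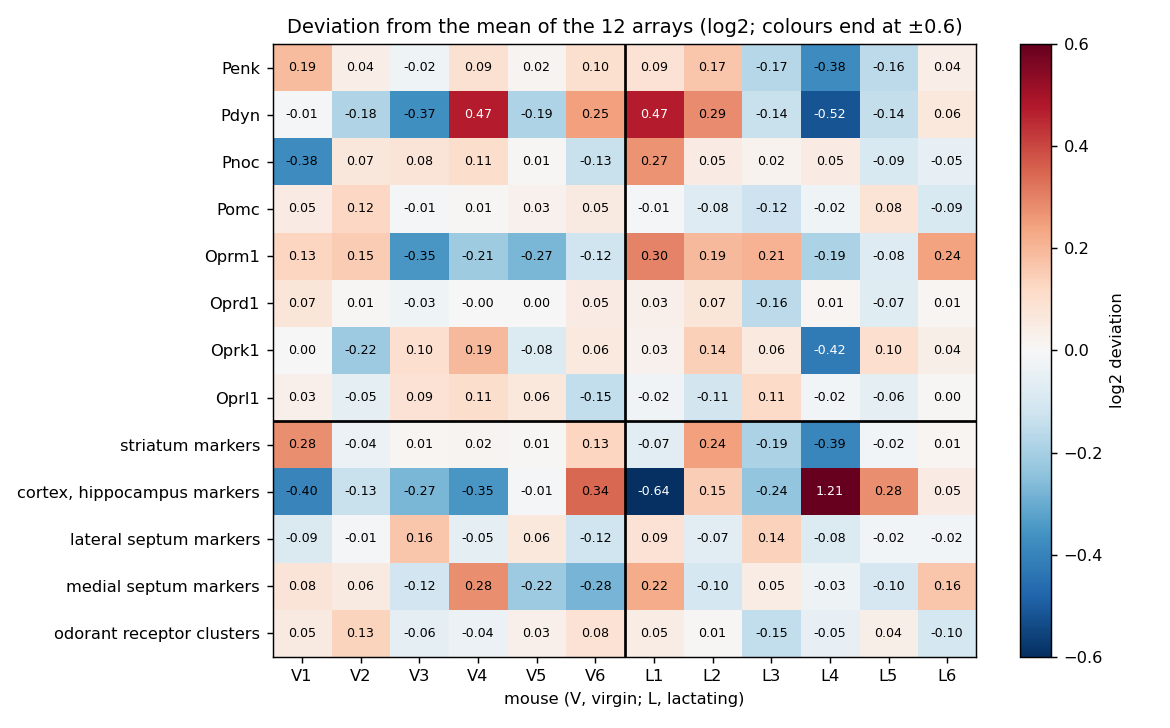
Log2 deviation of each opioid gene (upper block) and of each marker list and the odorant receptor clusters (lower block) from the mean of the 12 arrays, for virgin mice V1 to V6 and lactating mice L1 to L6, with blue below and red above the mean and the value printed in each cell. L4 is low for Penk (-0.38), Pdyn (-0.52) and Oprk1 (-0.42) and high for the cortex and hippocampus markers (1.21).

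Members also varied with one another, but no pair passed adjustment. Of the 28 pairs, Penk and Pdyn had the largest Pearson correlation over the 12 mice (Pearson's r = 0.705, permutation p = 0.00865, adjusted p = 0.242; Spearman's rho = 0.692, adjusted p = 0.213). It was 0.942 within lactating and 0.576 within virgin mice, and 0.754 without lactating mouse 1 and virgin mouse 4. By rank, Penk and Oprd1 had the largest correlation (Spearman's rho = 0.748, adjusted p = 0.197; Pearson's r = 0.611, adjusted p = 0.381, permutation), with r = 0.515 within lactating and 0.903 within virgin mice and 0.502 without lactating mice 3 and 5. Pdyn and Oprk1, the dynorphin precursor and its receptor, came next by Pearson's r, with 0.633 (permutation adjusted p = 0.313), which was 0.365 without lactating mouse 4 and virgin mouse 2.

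A search for the clusters that varied most like each member, over 12645 clusters above the median intensity with 1 gene symbol and across the 12 arrays, gave different genes for each member. Penk varied most like Drd1 (r = 0.942), Pde7b, a cyclic AMP phosphodiesterase gene (0.940), and Drd2 (0.929). Pdyn varied most like the homeobox gene Pbx3 (0.935), Strip2 (0.913) and Klf5 (0.910). The best matches of Pnoc were a pair of Sarnp clusters (0.895 and 0.882) and Atp6ap2 (0.881). For Oprm1 they were the orphan receptor gene Gpr75 (0.891), Pianp (0.891) and Nfya (0.880), and for Oprd1 Foxe1 (0.879), Slc16a9 (0.878) and Lmo3 (0.863). Oprk1 varied most like the phosphodiesterase gene Pde4b (0.910), Slmap (0.902) and the kinesin gene Kif17 (0.892), and Oprl1 like Fam214b (0.894), Ehmt1 (0.868) and Zfp369 (0.868). These correlations are descriptions picked as the highest of many over few arrays, all from the same normalization, and they carry no test. Pomc was not searched because its cluster was below the median intensity.

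Genes for the processing of opioid peptides, the enzymes that release and trim them and the convertase partners Pcsk1n and Scg5, were measured for 9 of 10 listed genes. Of the 9, 0 were called, beside 7.95% of all clusters. A difference above 0 was found for 8 of the 9 genes, with a median of 0.03. Over all clusters 45.6% were above 0, with a median of -0.01. Over the clusters above the median intensity 60.8% were, with a median of 0.02. Pcsk1, a prohormone convertase, had the smallest p, with 603 ± 65.6 in lactating and 557 ± 29.3 in virgin mice (SD, n = 6 each) and a log2 difference of 0.11 (p = 0.119, limma; p = 0.121, exact permutation test). Without lactating mouse 1, which had the highest Pcsk1 value (725), the difference was 0.05 (SE 0.0475). Furin had a difference of 0.06 (exact permutation p = 0.121), as had Pam (exact permutation p = 0.119), which encodes the enzyme that amidates peptides. Carboxypeptidase E, encoded by Cpe, which removes the basic residues left after cleavage, measured 8671 to 9586 in lactating and 8664 to 9492 in virgin mice.

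Among the peptidases that can degrade opioid peptides, 10 of 11 listed genes were measured and 1 was higher in lactating mice. Npepps, the puromycin-sensitive aminopeptidase, ran from 2324 to 2459 in lactating and from 2079 to 2393 in virgin mice. Its means were 2404 ± 52.4 and 2241 ± 110 (SD, n = 6 each), a log2 difference of 0.10 (SE 0.0382, p = 0.0200 and adjusted p = 0.619 in limma, exact permutation p = 0.0108). A share of 1 in 10 is close to the 7.95% of all clusters that were called. The median difference of the list was 0.04, against -0.01 over all clusters and 0.02 over those above the median intensity. Neprilysin, the enkephalin-degrading enzyme encoded by Mme, had a difference of 0.08 (exact permutation p = 0.310).

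Genes through which opioid receptors signal were measured for 29 of 30 listed genes, and 0 of 29 were called, beside 7.95% of all clusters. The list holds subunits of inhibitory G proteins, inward rectifier potassium channels, adenylyl cyclases, presynaptic calcium channels, regulators of G protein signalling, receptor kinases and arrestins. Of the 29, 22 had a difference above 0, or 75.9%, with a median of 0.03. Over all clusters 45.6% were above 0 with a median of -0.01, and over the clusters above the median intensity 60.8% were, with a median of 0.02. Adenylyl cyclase 8, encoded by Adcy8, had the smallest p, with 637 ± 57.7 in lactating and 579 ± 50.0 in virgin mice (SD, n = 6 each) and a log2 difference of 0.13 (p = 0.0771, limma; p = 0.0931, exact permutation test). Rgs9, which is also in the striatum list, had the lowest difference of the list at -0.23 (exact permutation p = 0.158), and Kcnj6, a subunit of the potassium channel that opioid receptors open, had a difference of 0.12 (exact permutation p = 0.113). Lactating mouse 4 had the lowest Rgs9 (1605) and the highest Adcy8 (710) and Kcnj6 (599) values of the 12, and without it the Rgs9 difference was -0.14 (SE 0.117). The inhibitory G protein gene Gnao1 differed by -0.00091 (exact permutation p = 0.937) and ranged from 9345 to 9614 in lactating and from 9360 to 9630 in virgin mice.

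**Figure D5:**
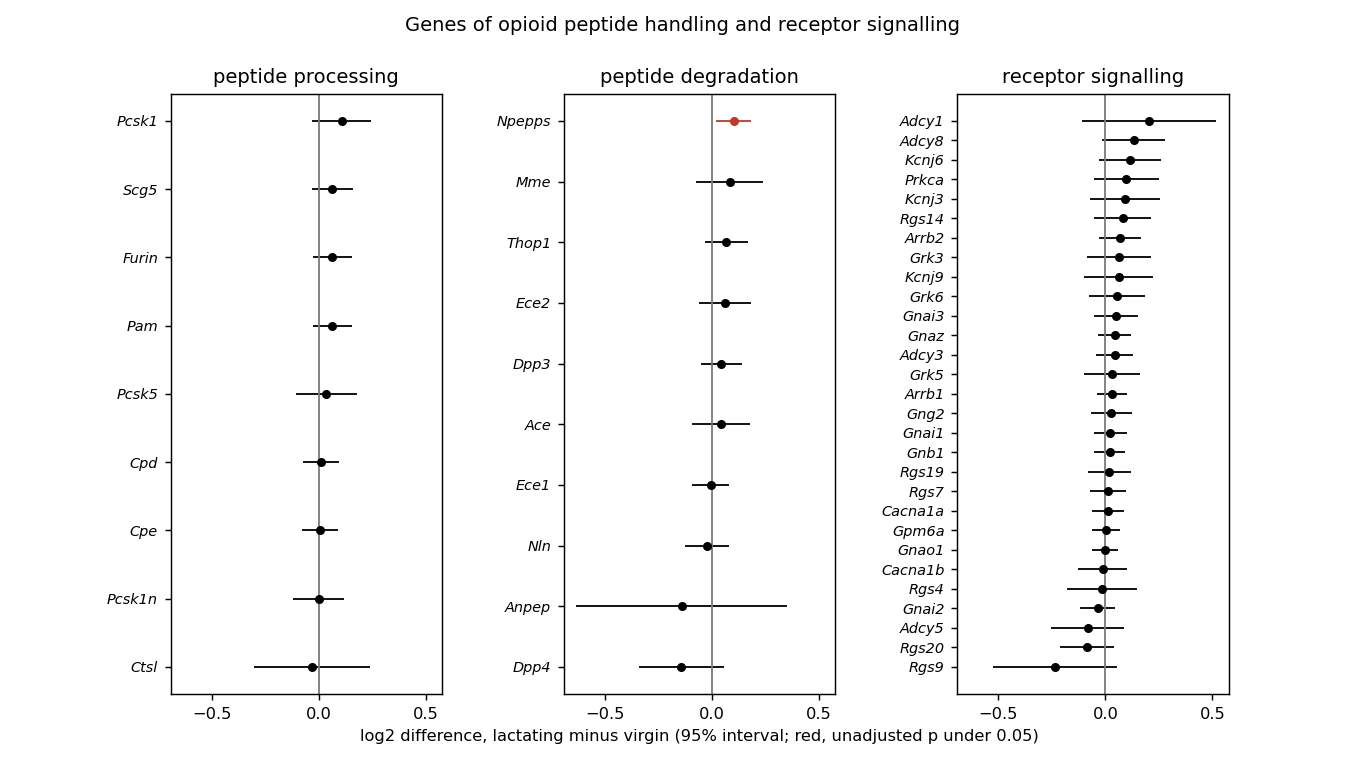
Log2 difference, lactating minus virgin, with its 95% interval from limma, for the measured genes of peptide processing (9), peptide degradation (10) and receptor signalling (29), sorted by size within each panel. The interval of Npepps (0.02 to 0.18, red) is the only one of the 48 that does not include 0.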

How the data were processed

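Septum RNA of 6 lactating and 6 virgin mice was measured on 1 array each, and groups were taken from the labels. The authors summarised and normalized probes with PLIER and GC background correction in Affymetrix Power Tools 1.12.0, per the paper and the submitters' processing notes, and the deposited values are normalized intensities on a linear scale, with 0 columns left unused. RNA was extracted in matched pairs that the labels do not identify. From the deposited intensities, log2(intensity + 16) was computed and tested with limma 3.58.1 in R 4.3.3 (lmFit, eBayes, two-sided, no block) over all 35556 clusters, with Benjamini-Hochberg adjustment. Single genes were also compared by an exact two-sided permutation test, and correlations by 100000 permutations. The 12 arrays limit the precision, and 496 clusters had a mean below the 16 added. The limma procedure was tested on simulated data with independent noise in each cluster. That simulation held none of the tissue variation between mice described above. For listed genes the brightest cluster with 1 symbol was used, and list genes without such a cluster are not reported here.

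The members and lists were chosen with earlier results of these data known. Named were the 8 members, list genes with an unadjusted p under 0.05 or otherwise the 3 with the smallest p in each partner list, and the 3 clusters most correlated with each member above the median intensity. Markers were also named from among the 3 brightest of a list, but not all 3 in every list. Chosen after their values were seen were Cpe, Mme, Gnao1, Pcsk1n, Scg5 and the remaining markers named. Alternatives were linear intensities, 1 added before log2, clusters above the median intensity, quantile normalization, array medians subtracted, array weights, eBayes with a variance trend and robust estimation, a replicate block, the mean over a gene's clusters and each array left out. Chosen after seeing the data were cyclic loess, covariates for striatum and for cortex and hippocampus markers, member pairs and the odorant receptor correlations.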

Additional observations from a re-analysis of the deposited data

Results flagged for a closer look

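Of the 16 groups formed by 8 members and 2 maternal states, 2 held a mouse far from the rest, where the gap to its nearest neighbour took up a larger share of the range of the group's 6 values than Dixon's 95% critical value. Chance gives this in about 1 in 20 groups. Oprk1, the kappa receptor gene, was lowest in lactating mouse 4 at 315, with a gap of 0.760 of the lactating range below the next mouse. The same mouse had the highest level of cortex and hippocampus markers and the lowest level of striatum markers, and the part of the dissection in its Oprk1 value was not tested. Pnoc, the nociceptin precursor gene, was highest in lactating mouse 1 at 1178, with a gap of 0.636 of the lactating range above the next mouse.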

How the results depend on the processing

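The count of called members went from 0 to 1 with array medians subtracted, with clusters above the median intensity, with the variance trend and robust estimation, with the replicate block and with the striatum or the cortex and hippocampus covariate, and the member called was Oprm1 each time (differences of 0.22 to 0.30). It was 0 with linear intensities, 1 added before log2, array weights, quantile normalization and cyclic loess. With 1 array left out it ranged from 0 to 2. Penk was called without lactating mouse 2, Oprm1 without lactating mice 4 or 5 or virgin mice 1 or 2, and Pomc (-0.11) without lactating mouse 5. With 1 array left out, 0 to 1 processing genes (Furin, without lactating mouse 2), 1 to 2 degradation genes and 0 to 3 signalling genes were called, the 3 without virgin mouse 3. The cortex and hippocampus covariate gave 2 called degradation genes, and the striatum covariate and the replicate block gave 1 called signalling gene each.

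The Pdyn difference (0.0084) turned sign with array weights (-0.017), cyclic loess (-0.0037) and quantile normalization (-0.0054), and ran from -0.085 to 0.11 with 1 array left out. Oprk1 turned sign with array medians subtracted (0.0032), with the covariates for cortex and hippocampus (0.041) and striatum (0.072) markers, and ran from -0.066 to 0.062 with 1 array left out. The other 6 members kept their direction under every alternative. The cause was not tested. Pomc, below the median intensity, was -0.04 with cyclic loess, and no value is given for it among clusters above the median.

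Same-numbered mice deviated together above a correlation of 0.1 for 2 of 6 numbers (-0.03 to 0.25). Of the arrays, 2 of 6 lactating and 2 of 6 virgin ones correlated best with their own number. With so few arrays these values cannot decide whether the numbers mark pairs. The numbers were not taken as pairs because the labels do not identify the pairs. With the replicate block Oprm1 was 0.22 (SE 0.0737), past the threshold in limma.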

Other observations

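Outside the opioid system, 3 of the 61 measured markers of the 10 tissue and cell type lists (4.92%) had an unadjusted p under 0.05, beside 7.95% of all clusters. Cx3cr1, the fractalkine receptor gene of microglia, was lower in lactating mice at 802 ± 12.7 against 867 ± 73.7 (SD, n = 6 each). Its log2 difference was -0.11 (p = 0.0482, limma, exact permutation p = 0.00216, the smallest this design allows). The Cx3cr1 groups did not overlap, as in 0.394% of all clusters (0.186% lower), while the other 4 microglia markers measured were not called. Of the 8 choroid plexus markers, 5 had a mean at or below the 95th percentile of the odorant receptor clusters (251). Among the 8, Clic6 was higher (log2 difference 0.16, p = 0.0465, limma, exact permutation p = 0.0671) and Slc4a5 was lower (-0.12, p = 0.0498, limma, exact permutation p = 0.0563). None of these passed Benjamini-Hochberg adjustment, and with 1 array left out Cx3cr1 missed the threshold in 10, Clic6 in 9 and Slc4a5 in 8 of 12 fits. Virgin mouse 6 had the highest level of microglia markers (0.38 on the log2 scale, relative to the mean of the 12 arrays) and the highest Cx3cr1 value (1013), and without it the Cx3cr1 difference was -0.06 (SE 0.0324). None of the 6 neuron, 5 astrocyte or 4 oligodendrocyte markers measured was called.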
